A study of Mus musculus with 10 samples.

Results

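Chromatin accessibility near 7 dual-specificity phosphatase genes (Dusp1, Dusp2, Dusp4, Dusp5, Dusp6, Dusp10, and Dusp16) was compared among group 2 innate lymphoid cells (ILC2s) of 5 mouse tissues. ATAC-seq, in which a transposase cuts open chromatin, gave a table of 50039 regions, and 66 of these belong to the 7 genes because their centre lies inside the gene or has its nearest curated RefSeq transcription start site (TSS) there. The 7 genes were chosen by values of these same libraries that were already known, and a region is in the table only because a peak was called in both libraries of at least 1 tissue. The differences between tissues below therefore describe size against the spread between libraries, and the genes were not drawn independently of them. Naming a region after the nearest gene is a convention, and its target gene was not measured.

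Wild-type male C57BL/6 mice aged 6 weeks gave the ILC2s, and 2 libraries of 50000 cells were made for each of lung, pancreas, small intestine (SI), large intestine (LI), and bone marrow (BM). Cells of 10 mice were pooled for each intestinal library and cells of 16 mice for each of the others. The gates differed: BM cells were Lin-ST2+CD25+ (BD FACSAria III), cells of LI, lung, and pancreas were in addition gated as CD45+CD127+, and SI cells were gated on CD127, CD45, KLRG1, and an intermediate to low Thy1 level without ST2 (these 4 tissues on a Moflo Astrios). Tissue, gate, sorter (for BM), and number of pooled mice cannot be told apart.

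Total counts per library ranged from 10282987 to 32797872, and the single most counted region took between 1.78% and 9% of them, most in pancreas replicate 2 and LI replicate 1. Promoter regions of 6 of 7 ILC2 markers (Gata3, Il1rl1, Il2ra, Klrg1, Rora, and Il7r) were open in every library, summing to between 196 and 314 CPM (counts scaled to the total of each library in the table, with TMM normalization). Il1rl1, which encodes ST2, was lowest in SI (4.53 and 3.55 CPM), the tissue gated without ST2. Promoter regions of 2 of 3 T cell markers (Cd3e and Cd3g) summed to between 4.7 and 10 CPM. The promoter region of Hba-a1, an alpha globin gene of erythroid cells, gave 13.5 and 6.4 CPM in the BM libraries and between 1.8 and 4.21 CPM elsewhere. The lists for B cells, myeloid cells, mast cells and basophils, NK cells and ILC1s, ILC3s, and epithelium had no promoter region to count. Of the 11 member regions called higher or lower in BM below, BM replicate 1, with the higher Hba-a1 value, was the further of the 2 BM libraries in the direction of the call at 6 and BM replicate 2 at 5. The part of erythroid chromatin in the BM results was not tested.

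Dual-specificity phosphatases of this family switch off mitogen-activated protein kinases (MAPKs) by removing phosphate from both the threonine and the tyrosine of the activation loop. Most of them are themselves induced by MAPK signalling, so that they act in negative feedback. Dusp1, Dusp2, Dusp4, and Dusp5 are nuclear and inducible, Dusp5 with a preference for ERK. Dusp6 is a cytoplasmic ERK phosphatase, and Dusp10 and Dusp16 prefer JNK and p38. In ILC2s, MAPK signalling lies downstream of alarmin receptors such as ST2, and p38 activity in particular is known to feed type 2 cytokine production.

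The sequences of 6 regions are shown as examples of clear differences in accessibility between tissues, and 2 promoters because they hold motif letters these genes are known for. Each region is given by its central 200 bases (mm10, plus strand), and each promoter by the bases from 250 to 51 upstream of the RefSeq start (GRCm38.p6, strand of the gene, RefSeq table). Capitals mark matches on either strand to the motifs named in this paragraph. AP-1, the site of Fos and Jun factors, was searched as TGANTCA. The cAMP response element (CRE), the site of CREB factors, was searched as TGACGTC. For the lineage factor GATA3 and its relatives the letters were AGATAA. ETS factors were searched by the letters CCGGAA. RUNX factors, which work in many lymphocytes, were searched as TGTGGT. The CArG box of SRF was searched as CC, then 6 bases that are each A or T, then GG. None of these motifs matched in the 2 Dusp4 windows. Dusp4 had no entry in the promoter table. The 250 bases upstream of Dusp2, Dusp6, Dusp10, and Dusp16 held no CRE or CArG letters. As the 2 printed promoters were picked for their letters, the shares of promoters given with them below are descriptions.
Dusp4 -66.9 kb (chr8:34740575-34740774): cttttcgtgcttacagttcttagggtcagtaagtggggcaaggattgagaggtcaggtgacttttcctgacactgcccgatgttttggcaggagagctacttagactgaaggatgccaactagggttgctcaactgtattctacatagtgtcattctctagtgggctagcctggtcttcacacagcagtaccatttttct
Dusp4 -51.7 kb (chr8:34755803-34756002): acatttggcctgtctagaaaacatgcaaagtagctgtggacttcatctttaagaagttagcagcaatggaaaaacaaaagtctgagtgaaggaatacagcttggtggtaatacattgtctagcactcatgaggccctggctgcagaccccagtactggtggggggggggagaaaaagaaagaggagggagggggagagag
Dusp10 +57.0 kb (chr1:184091279-184091478): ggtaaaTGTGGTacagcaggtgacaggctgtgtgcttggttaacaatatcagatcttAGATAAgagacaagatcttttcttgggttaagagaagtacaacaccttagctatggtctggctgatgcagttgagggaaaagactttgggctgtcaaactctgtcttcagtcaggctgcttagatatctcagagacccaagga
Dusp10 +72.0 kb (chr1:184106320-184106519): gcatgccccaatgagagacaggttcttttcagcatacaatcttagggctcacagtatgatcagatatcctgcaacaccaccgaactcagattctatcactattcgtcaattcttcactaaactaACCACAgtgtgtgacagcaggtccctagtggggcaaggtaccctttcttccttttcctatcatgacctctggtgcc
Dusp6 +110.7 kb (chr10:99373857-99374056): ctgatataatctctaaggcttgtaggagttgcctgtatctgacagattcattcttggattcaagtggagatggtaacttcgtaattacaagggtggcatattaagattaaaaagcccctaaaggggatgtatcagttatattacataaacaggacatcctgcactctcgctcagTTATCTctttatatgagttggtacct
Dusp6 +124.8 kb (chr10:99387927-99388126): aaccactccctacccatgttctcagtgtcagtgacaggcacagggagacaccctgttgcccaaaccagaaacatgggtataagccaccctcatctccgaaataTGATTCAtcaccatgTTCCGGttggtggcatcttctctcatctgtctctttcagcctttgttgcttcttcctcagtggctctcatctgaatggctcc
Dusp1 promoter (chr17:26508523-26508722, minus strand): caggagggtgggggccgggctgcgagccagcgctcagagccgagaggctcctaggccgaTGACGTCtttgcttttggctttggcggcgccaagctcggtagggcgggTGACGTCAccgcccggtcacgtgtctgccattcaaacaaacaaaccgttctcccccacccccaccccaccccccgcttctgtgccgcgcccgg
Dusp5 promoter (chr19:53528895-53529094, plus strand): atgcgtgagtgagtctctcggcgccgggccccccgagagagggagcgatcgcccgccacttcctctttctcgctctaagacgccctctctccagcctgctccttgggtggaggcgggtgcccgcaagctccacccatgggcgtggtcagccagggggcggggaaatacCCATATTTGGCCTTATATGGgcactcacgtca

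Of the 66 regions, 44 were intergenic, 15 intragenic, and 7 in a promoter window (1000 bp before a TSS to 100 bp after it), against 31.1%, 49.9%, and 19.0% of the whole table. Their centres lay a median of 29.1 kb from the start of their gene, and 12 lay more than 100 kb away. Dusp6 had 19 regions, Dusp5 12, Dusp10 11, Dusp4 9, and Dusp1, Dusp2, and Dusp16 had 5 each. None of the 11 Dusp10 regions was in its promoter window, and the nearest was 14.8 kb into the gene. All 66 regions passed the filter of at least 1 count.

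Accessibility differed among the 5 tissues at 36 of the 66 regions (edgeR quasi-likelihood test over 10 libraries, Benjamini-Hochberg adjusted p under 0.05 over 49981 regions), beside 44.2% of all regions. The members were selected on values of these libraries, so nothing is read from the 2 shares. Of the 36, 20 passed in each of 16 alternative fits. Passing in each alternative fit was not counted over all regions. The range between the highest and the lowest tissue mean had a median of 1.05 on the log2 scale for the members and 0.92 for all regions. By gene, the test called 9 of 9 Dusp4 regions, 4 of 5 Dusp1 regions, 7 of 11 Dusp10 regions, 8 of 19 Dusp6 regions, 5 of 12 Dusp5 regions, 2 of 5 Dusp2 regions, and 1 of 5 Dusp16 regions. BM had the lowest mean at 22 of the 66 regions (33.3%, beside 26.2% of all regions) and the highest at 11 (16.7%, beside 28.8%). Of those 22, 9 were the Dusp4 regions, so the first share rests largely on that locus. In these pooled samples, fewer cells with an open region and a less open region in each cell cannot be told apart.

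**Figure D1:**
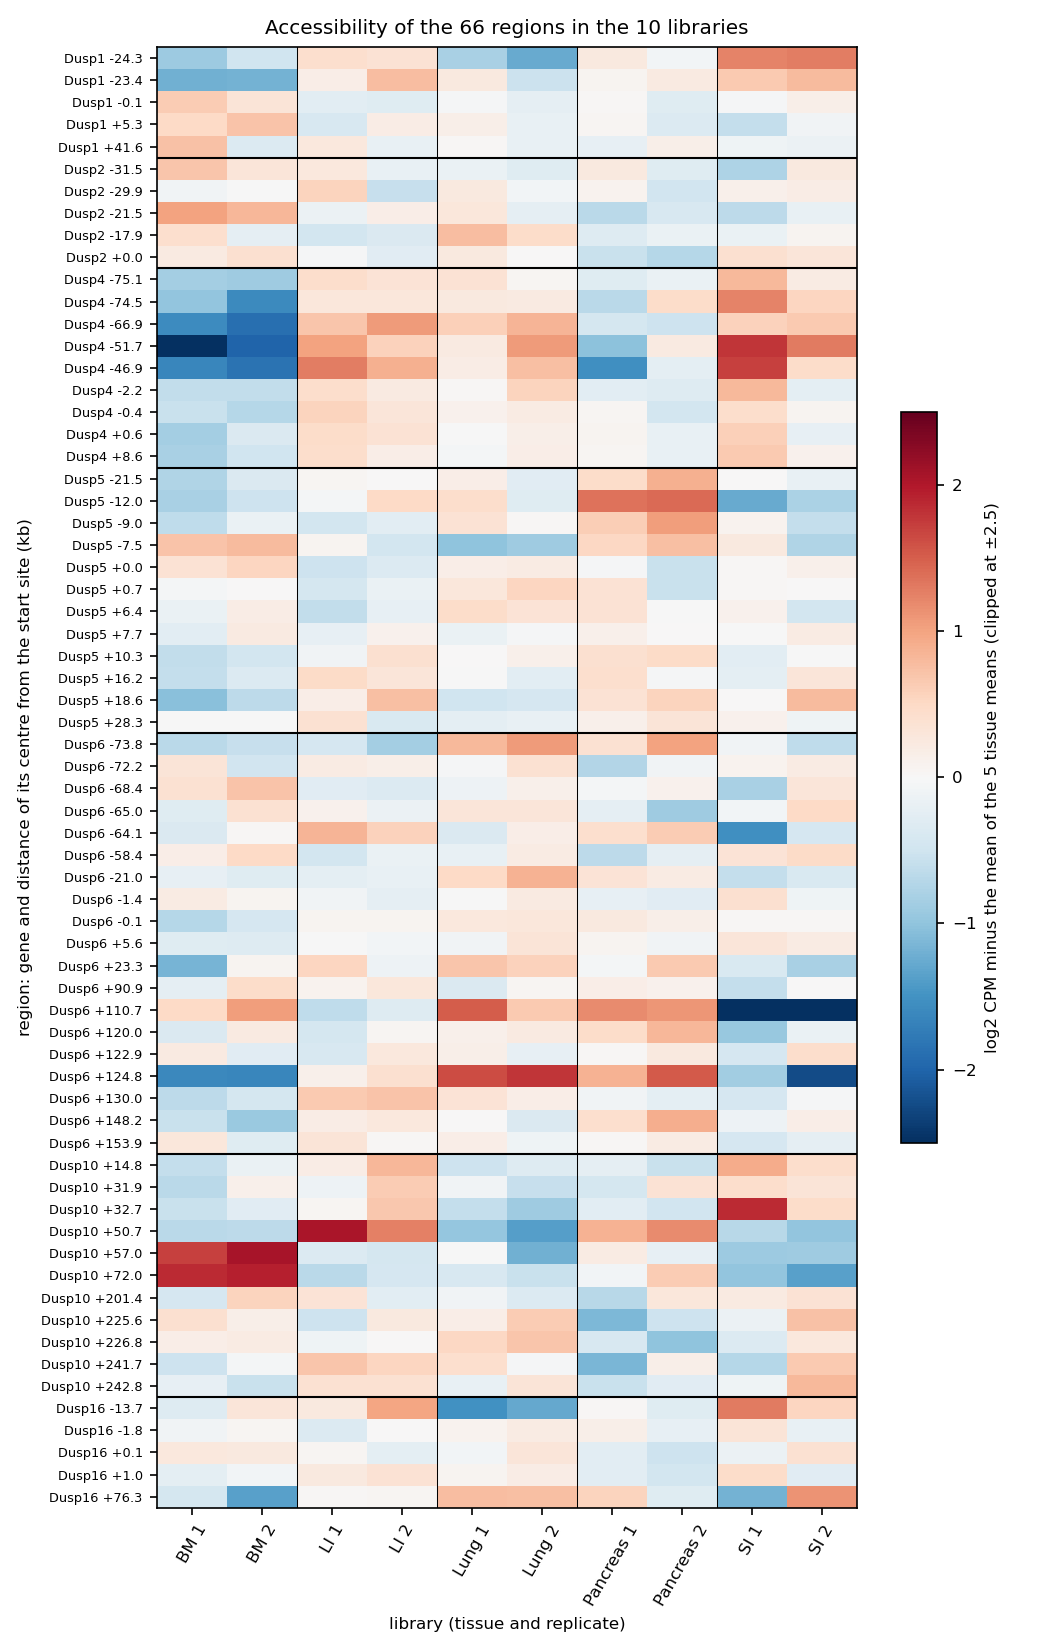
Accessibility of the 66 regions (rows, by gene and distance of the centre from the start in kb) in the 10 libraries (columns). Colour is log2 CPM minus the mean of the 5 tissue means, red for higher and blue for lower, clipped at ±2.5; the 9 Dusp4 rows are blue in both BM columns, and the Dusp10 rows at +57.0 and +72.0 kb are red there.

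A region was called tissue-specific (TS OCR) when the 4 contrasts of a tissue with its fellows were all positive at an unadjusted p under 0.05, and commonly decreased when they were all negative. Member regions called higher numbered 5 for BM (4.5% of all regions were called so), 2 for SI (2.8%), 1 for pancreas (1.43%), 0 for LI (1.3%), and 0 for lung (1.3%). Those called lower numbered 6 for BM (6.63%), 3 for pancreas (0.572%), 2 for SI (3.59%), 1 for lung (1.72%), and 0 for LI (0.132%). A single region, in Dusp10, was higher in both LI and SI than in BM, lung, and pancreas (2.18% of all regions). Of these 21 calls, 6 held in each of the 16 alternative fits, and 9, these 6 among them, passed when the adjusted p had to be under 0.05 in each contrast. The 6 lie at Dusp1, Dusp4 (a pair), Dusp6, and Dusp10 (a pair). The count of regions higher in BM fell to 2 without lung replicate 2 and to 3 without pancreas replicate 2, and the libraries on which single calls rest are given with each region.

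**Figure D2:**
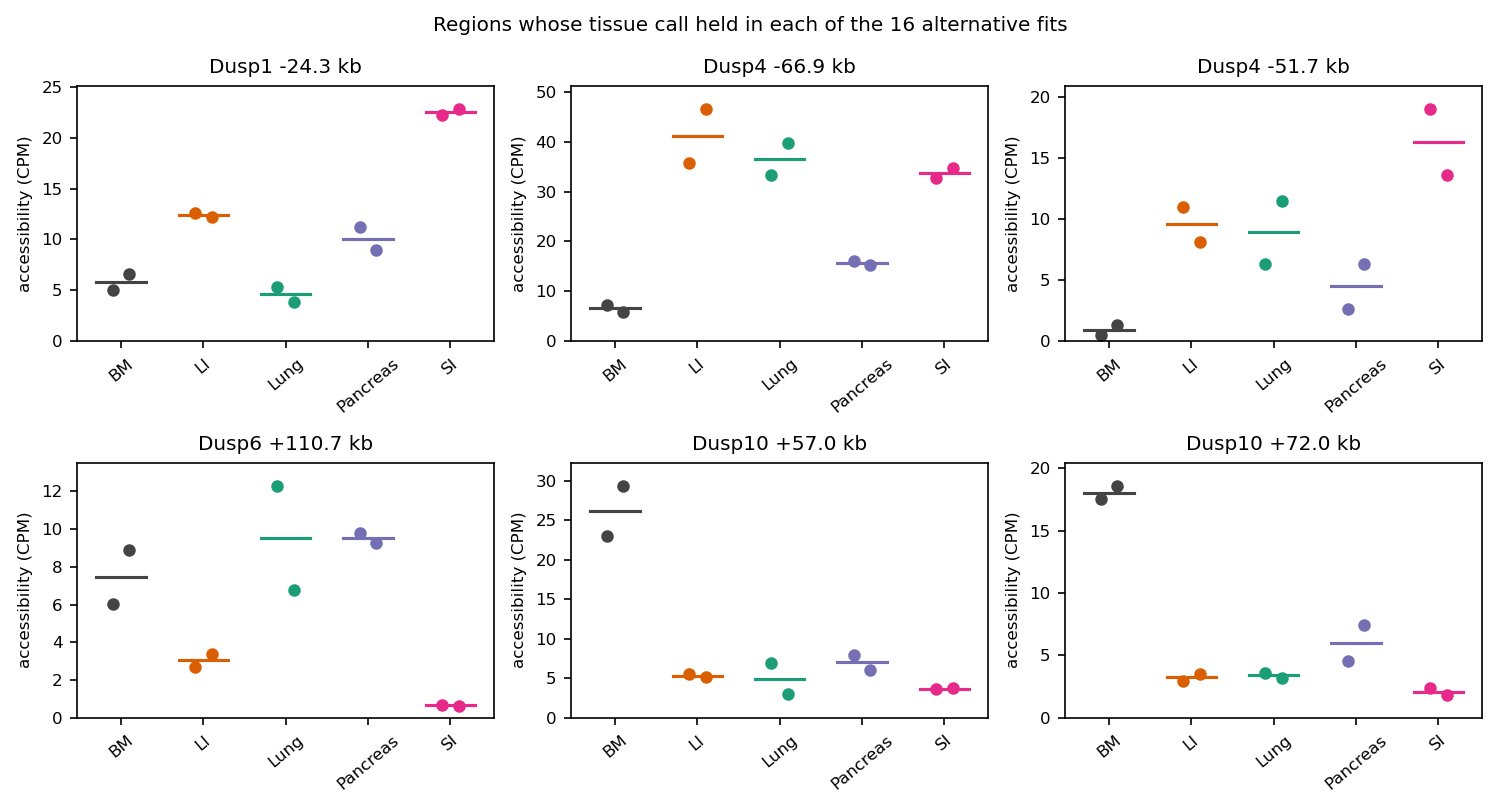
Accessibility (CPM) of the 6 regions whose call held in each of the 16 alternative fits. Points are the 2 libraries of a tissue and lines their mean; SI stands highest at Dusp1 -24.3 kb and lowest at Dusp6 +110.7 kb, BM lowest at both Dusp4 regions and highest at both Dusp10 regions.

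Dusp4, a nuclear phosphatase of ERK, JNK, and p38, was the member with 1 common pattern along its locus. BM had the lowest mean at each of its 9 regions, and the highest mean was in LI at 5 and in SI at 4. Pancreas had the next lowest mean after BM at each of the 9, as the plot of the 3 loci shows. Of the regions, 6 lie upstream of the gene, 1 in its promoter, and the rest in its first intron. Across the 16 alternative fits, the 3 regions at -66.9, -51.7, and -46.9 kb remained called in each. The other 6 each lost the call over the 5 tissues without BM replicate 1 or BM replicate 2 (highest adjusted p between 0.0562 and 0.268 over the fits).

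The upstream region at -66.9 kb (chr8:34740333-34741016, intergenic, shown above) gave CPM values of 7.34 and 5.89 in BM, 33.4 and 39.8 in lung, 16.1 and 15.3 in pancreas, 35.7 and 46.5 in LI, and 32.8 and 34.8 in SI. Both BM libraries lay below all others and both pancreas libraries lay between BM and the rest. BM was lower than pancreas by a log2 fold change of -1.25 (edgeR adjusted p = 0.000887) and lower than LI by -2.64 (edgeR adjusted p = 2.01e-06), and without any 1 library the smallest of the 4 BM differences stayed between -1.42 and -1.10. The upstream region at -51.7 kb (chr8:34755480-34756325, intergenic) gave CPM values of 0.538 and 1.29 in BM, 6.35 and 11.5 in lung, 2.65 and 6.36 in pancreas, 11 and 8.12 in LI, and 19 and 13.6 in SI. Here too the BM libraries lay below the other 8, and the 2 SI libraries lay above them. The BM difference from SI was -4.14 and that from pancreas -2.23 (edgeR adjusted p = 2.05e-05 and 0.00414).

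At -46.9 kb (chr8:34760462-34760990) the CPM values were 0.979 and 0.828 in BM, 3.69 and 5.49 in lung, 1.06 and 2.7 in pancreas, 7.93 and 6.08 in LI, and 10.7 and 4.46 in SI. One pancreas library, at 1.06 CPM, was close to BM, and BM was not lower than pancreas at the threshold. The neighbouring pair at -75.1 and -74.5 kb was weakly open, with tissue means between 0.717 and 3.77 CPM, and the one at -74.5 kb (chr8:34732905-34733405) gave CPM values of 0.881 and 0.552 in BM, 2.2 and 2.18 in lung, 1.12 and 2.59 in pancreas, 2.27 and 2.26 in LI, and 4.48 and 2.72 in SI. Its call as lower in BM was lost without BM replicate 2 (smallest difference -1.01) and without pancreas replicate 2 (-0.64), and with GC and width trends removed (-0.96).

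The Dusp4 promoter (chr8:34806933-34807494), with a CRE match in its central 500 bases, gave CPM values of 17.6 and 15.7 in BM, 28 and 29.7 in lung, 26.7 and 18.8 in pancreas, 38.1 and 31.7 in LI, and 35.3 and 27.3 in SI. BM stood below every other library, and was lower than LI by -1.07 (edgeR adjusted p = 0.00213), while the difference from pancreas did not pass. Without BM replicate 2 the test over the 5 tissues gave an adjusted p of 0.0562 for this promoter. In the first intron, the region at +8.6 kb (chr8:34815821-34816517) gave CPM values of 8.47 and 10.6 in BM, 14.4 and 16.7 in lung, 15.4 and 13.1 in pancreas, 20.2 and 16.8 in LI, and 23.6 and 16.1 in SI. It was commonly decreased in BM with a smallest difference of -0.58 from pancreas, a call that was lost without BM replicate 1 (-0.43), lung replicate 2 (-0.59), or pancreas replicate 1 (-0.45), with library size alone, and with GC and width trends removed. Side by side, the BM difference from LI was between -3.36 and -2.64 at -66.9, -51.7, and -46.9 kb. It was between -1.07 and -0.95 at the 4 regions from -2.2 to +8.6 kb. At the weakly open upstream pair at -75.1 and -74.5 kb it was -1.312 and -1.655, between those ranges. The larger difference was thus not shared by every far upstream region.

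**Figure D3:**
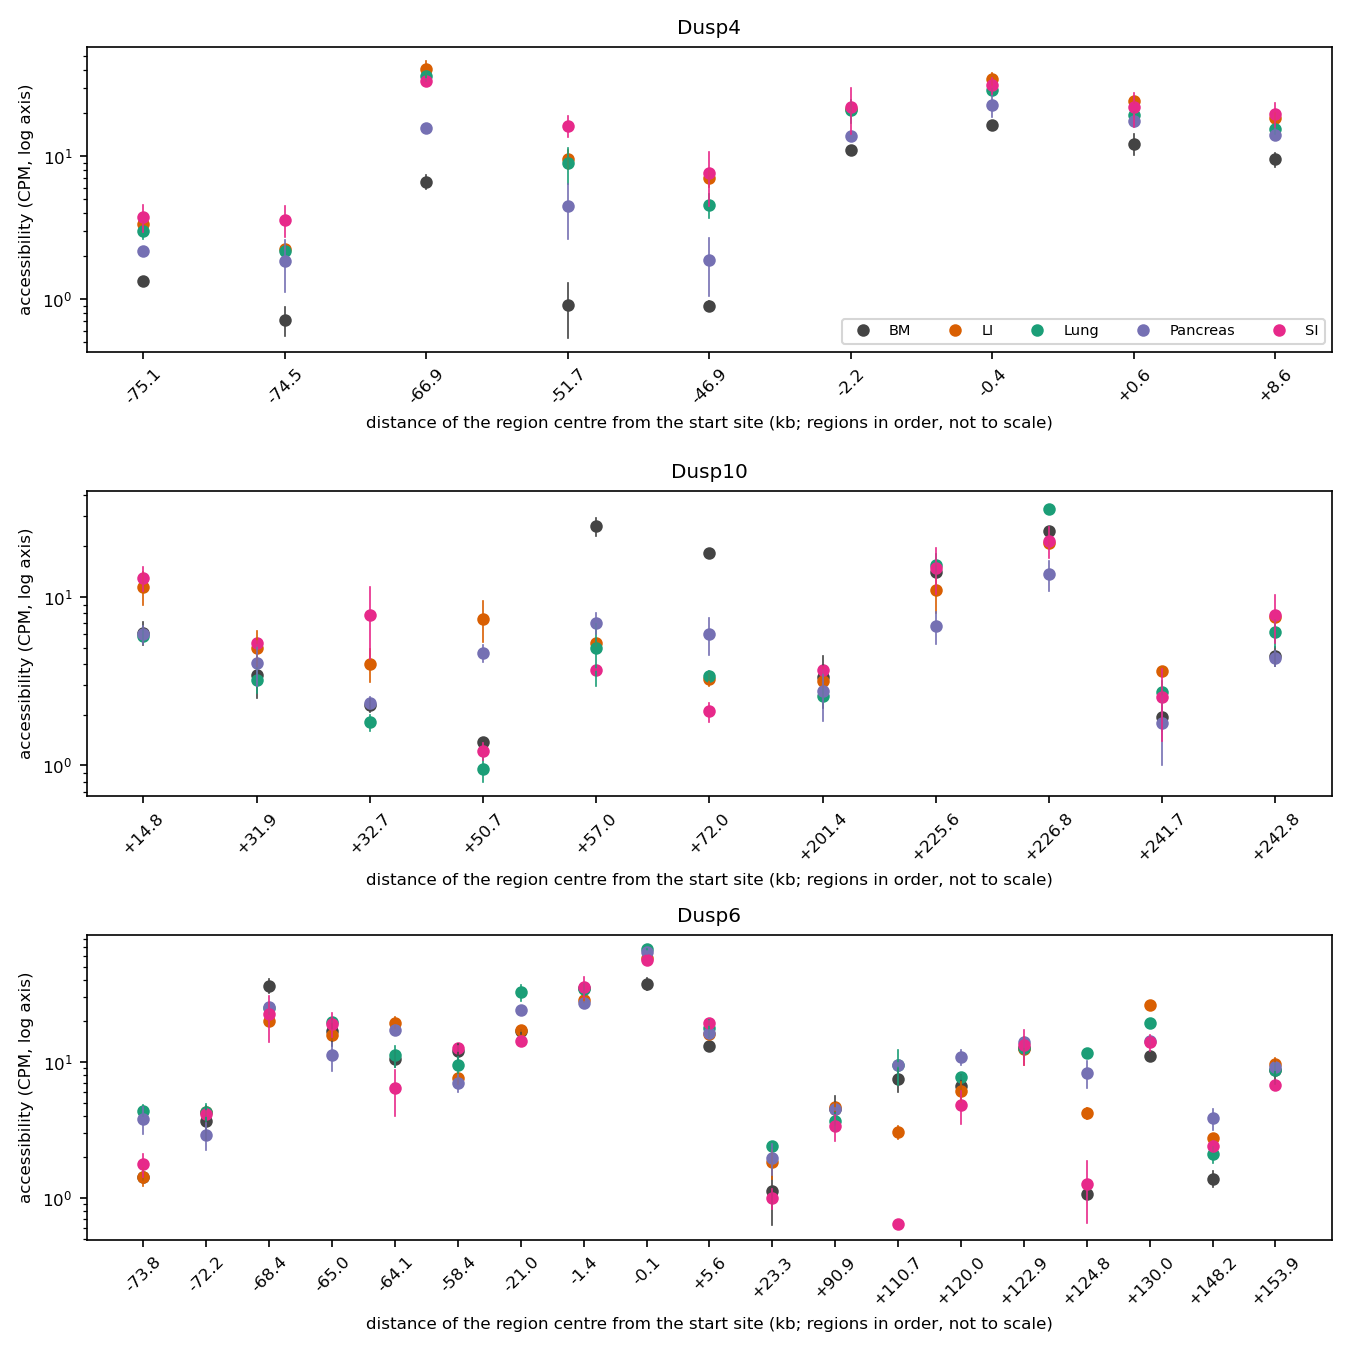
Accessibility (CPM, log axis) of the regions of Dusp4, Dusp10, and Dusp6 in order of distance from the start (kb, not to scale). Points are tissue means and lines join the 2 libraries; BM is lowest at each Dusp4 region, whereas at Dusp10 and Dusp6 the highest tissue changes from region to region.

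Dusp1, the best studied nuclear MAPK phosphatase and an immediate early gene, was more open in BM at its promoter and just downstream of the gene. The promoter (chr17:26508333-26508902) gave CPM values of 110 and 89.7 in BM, 70 and 61.4 in lung, 72.7 and 58.3 in pancreas, 59.9 and 58.3 in LI, and 70.5 and 78.9 in SI. Both BM libraries were above the other 8, with a smallest log2 difference of 0.42 from SI (unadjusted p = 0.0375, edgeR adjusted p = 0.108). The call was lost without BM replicate 1 (0.27), lung replicate 1 (0.43), lung replicate 2 (0.43), pancreas replicate 2 (0.42), or SI replicate 1 (0.36), with library size alone (0.22), and with GC and width trends removed (0.29). In the printed promoter, CRE letters matched 3 times, 2 of them overlapping on opposite strands, and 2.78% of 32851 RefSeq promoter windows of 250 bases held such a match.

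The region at +5.3 kb from the Dusp1 start (chr17:26502929-26503471) gave CPM values of 80.6 and 93.5 in BM, 63.4 and 50.4 in lung, 59.4 and 45 in pancreas, 43.1 and 65.3 in LI, and 37.8 and 53.7 in SI. BM was above the other tissues by at least 0.61 (largest edgeR adjusted p = 0.0788), and the call was lost without BM replicate 2 (0.50), LI replicate 1 (0.42), lung replicate 2 (0.44), or pancreas replicate 2 (0.55), and with library size alone (0.40). A neighbouring pair of upstream regions ran the other way. At -24.3 kb (chr17:26532497-26533037) the CPM values were 4.99 and 6.58 in BM, 5.33 and 3.86 in lung, 11.2 and 8.95 in pancreas, 12.6 and 12.2 in LI, and 22.2 and 22.8 in SI. The SI libraries were the highest, with 0.86 over LI and 2.30 over lung (edgeR adjusted p = 0.0406 and 1.7e-05), and this call held without any 1 library.

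At -23.4 kb (chr17:26531639-26532176) the CPM values were 2.4 and 2.44 in BM, 6.74 and 3.84 in lung, 5.95 and 6.58 in pancreas, 6.36 and 9.64 in LI, and 8.95 and 9.82 in SI. BM was the lowest, by -1.12 from lung (edgeR adjusted p = 0.0246), and the call was lost without lung replicate 1 (-0.68). At +41.6 kb the test over the tissues gave an adjusted p of 0.855. Promoter and upstream regions of Dusp1 thus had different highest tissues, BM at the former and SI at the latter.

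Dusp2, a nuclear ERK and p38 phosphatase of lymphoid and myeloid cells, had 5 regions. The promoter (chr2:127335876-127336438) gave CPM values of 25.9 and 29.1 in BM, 26.2 and 22.1 in lung, 14.9 and 13.5 in pancreas, 21.7 and 18.2 in LI, and 29.1 and 27.4 in SI. Both pancreas libraries were the lowest, with a smallest difference of -0.48 from LI (unadjusted p = 0.0353, edgeR adjusted p = 0.274). The call was lost without LI replicate 1 (-0.36), either lung replicate (-0.49 each), pancreas replicate 1 (-0.56), or pancreas replicate 2 (-0.42), and with library size alone. The region at -21.5 kb (chr2:127314402-127314986) gave CPM values of 16.6 and 14.8 in BM, 10 and 7.07 in lung, 5.12 and 6.26 in pancreas, 7.5 and 9.21 in LI, and 5.2 and 7.21 in SI. BM was higher than each other tissue by at least 0.88 (largest edgeR adjusted p = 0.0296), a call that was lost without lung replicate 2 (0.63). The remaining 3 Dusp2 regions gave adjusted p-values between 0.167 and 0.941.

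Dusp5, a nuclear phosphatase with a preference for ERK, had a promoter that was open in all tissues (chr19:53528889-53529422), with CPM values of 71.8 and 81.6 in BM, 63.4 and 64.6 in lung, 55.4 and 38.3 in pancreas, 39.4 and 44.1 in LI, and 57.1 and 61.7 in SI. Both BM libraries lay above the other 8, and BM was higher than LI by 0.88 (edgeR adjusted p = 0.00344), while its differences from lung and SI did not pass. The test over the tissues lost its call without BM replicate 2 (adjusted p = 0.0607) and with GC and width trends removed. The printed sequence holds 2 adjoining CArG box matches, the binding letters of serum response factor, and 1.47% of the 32851 promoter windows held any.

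The upstream region at -12.0 kb of Dusp5 (chr19:53516895-53517396) gave CPM values of 1.57 and 1.93 in BM, 3.84 and 2.26 in lung, 7.3 and 7.66 in pancreas, 2.7 and 4 in LI, and 1.11 and 1.57 in SI. Both pancreas libraries were the highest, with a smallest difference of 1.14 from LI (largest unadjusted p = 0.00989, largest edgeR adjusted p = 0.139). The call was lost without LI replicate 1 (0.90) or lung replicate 2 (0.96). In contrast, the region in the second intron at +7.7 kb (chr19:53536597-53537165) had tissue means between 32.9 and 37.8 CPM, with an adjusted p of 0.893. In the third intron at +10.3 kb the means ran from 18.9 CPM in BM to 37.2 CPM in pancreas (log2 difference -0.98, edgeR adjusted p = 0.00381), and this region lost its call over the 5 tissues without BM replicate 1 or pancreas replicate 2 and with GC and width trends removed.

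Dusp6, the cytoplasmic ERK phosphatase, had the most regions, and 18 of its 19 lay outside the gene and its promoter. The promoter (chr10:99262819-99263403) gave CPM values of 33.7 and 41.5 in BM, 67.1 and 67.9 in lung, 65.9 and 61.9 in pancreas, 58.1 and 58.6 in LI, and 56.4 and 56.5 in SI. BM was lower than each other tissue, with a smallest difference of -0.58 from SI (largest edgeR adjusted p = 0.0217). That call was lost without BM replicate 1 (-0.44). In the main fit the Dusp1 promoter was thus called higher in BM and the Dusp6 promoter lower. The Dusp1 call was lost with library size alone (smallest difference 0.22) and with GC and width trends removed (0.29). The Dusp6 call held under both (-0.60 and -0.46).

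Downstream of Dusp6, 2 regions differed in different sets of tissues. At +110.7 kb (chr10:99373686-99374226, shown above) the CPM values were 6.02 and 8.88 in BM, 12.3 and 6.76 in lung, 9.78 and 9.28 in pancreas, 2.7 and 3.39 in LI, and 0.674 and 0.627 in SI. SI was lower than LI by -2.24 and lower than pancreas by -3.87 (edgeR adjusted p = 0.00251 and 6.29e-06), and the call held without any 1 library. The region at +124.8 kb (chr10:99387774-99388278), with an AP-1 and an ETS match in the window shown, gave CPM values of 1.08 and 1.06 in BM, 11.1 and 12.3 in lung, 6.42 and 10.2 in pancreas, 3.84 and 4.61 in LI, and 1.88 and 0.662 in SI. Lung and pancreas were high, LI was between, and BM and SI were low, with 3.44 between lung and BM (edgeR adjusted p = 3.68e-05). Lung and pancreas did not differ at the threshold, so neither was called tissue-specific.

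Lung and pancreas were also the highest tissues at -21.0 kb (chr10:99241937-99242563), where the CPM values were 17.3 and 16.2 in BM, 28.3 and 36.9 in lung, 25.3 and 23.1 in pancreas, 16.9 and 17.6 in LI, and 13.1 and 15.4 in SI. Lung exceeded BM by 0.96 (edgeR adjusted p = 0.00396). At -64.1 kb (chr10:99198905-99199443) the CPM values were 9.15 and 12.1 in BM, 9.21 and 13.2 in lung, 15.8 and 18.6 in pancreas, 21.4 and 17.7 in LI, and 4.04 and 8.81 in SI. SI was the lowest by -0.71 from BM (largest unadjusted p = 0.0398, largest edgeR adjusted p = 0.113), and the call was lost without BM replicate 2 (-0.50), lung replicate 2 (-0.54), either pancreas replicate (-0.71 each), or SI replicate 1 (-0.29), and with library size alone (-0.51). LI was the highest tissue at +130.0 kb, with a mean of 26.1 CPM against 11.1 CPM in BM. Over the 19 regions, lung had the highest mean at 7 (36.8%, beside 14.7% of all regions). LI and pancreas had it at 4 each (21.1%, beside 15.9% and 16.9%), SI at 3 (15.8%, beside 23.8%), and BM at 1 (5.26%, beside 28.8%). Only 8 of the 19 differed among tissues at the threshold, so these counts take in regions without a called difference.

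Dusp10, a JNK and p38 phosphatase, had a different highest tissue at different stretches of its locus. Downstream of the gene, 2 regions were most open in BM. At +57.0 kb (chr1:184091106-184091650, shown above) the CPM values were 23 and 29.4 in BM, 6.94 and 2.95 in lung, 8.01 and 6.04 in pancreas, 5.49 and 5.13 in LI, and 3.66 and 3.73 in SI. BM was higher than each other tissue by at least 1.88 (largest edgeR adjusted p = 0.000842). At +72.0 kb (chr1:184106166-184106672) the CPM values were 17.5 and 18.6 in BM, 3.61 and 3.2 in lung, 4.53 and 7.44 in pancreas, 2.96 and 3.52 in LI, and 2.36 and 1.81 in SI. BM was again the highest, by at least 1.61 (largest edgeR adjusted p = 0.00119), and both calls held without any 1 library.

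Closer to the gene, the region at +50.7 kb (chr1:184084866-184085366) gave CPM values of 1.37 and 1.38 in BM, 1.1 and 0.8 in lung, 4.12 and 5.18 in pancreas, 9.41 and 5.43 in LI, and 1.35 and 1.08 in SI. LI and pancreas were high and BM, lung, and SI were low, with 2.41 between LI and BM and 1.74 between pancreas and BM (edgeR adjusted p = 0.000527 and 0.00756). In the second intron at +14.8 kb (chr1:184048735-184049529) the CPM values were 5.19 and 7.04 in BM, 5.45 and 6.24 in lung, 6.71 and 5.28 in pancreas, 8.98 and 14 in LI, and 15 and 10.8 in SI. LI and SI were higher than the other tissues, with 0.92 between LI and BM (edgeR adjusted p = 0.0264). The call as intestinal was lost without BM replicate 1 (smallest difference 0.72), LI replicate 2 (0.56), or pancreas replicate 2 (0.79), and with GC and width trends removed (0.40).

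The intronic region at +32.7 kb (chr1:184066853-184067353) gave CPM values of 2.06 and 2.48 in BM, 2 and 1.6 in lung, 2.53 and 2.16 in pancreas, 3.14 and 4.91 in LI, and 11.4 and 4.25 in SI. SI overlapped LI, and 1 SI library was far above the rest: without SI replicate 1 the smallest SI difference was 0.02, and the call held in 2 of the 10 fits that left out a library (it was lost without either BM, lung, or pancreas replicate and without LI replicate 1, with differences from 0.67 to 0.93, and with the replicate number as a block). Far downstream, the region at +226.8 kb (chr1:184260911-184261500) gave CPM values of 24.4 and 24.8 in BM, 30.9 and 35.1 in lung, 16.4 and 10.8 in pancreas, 20 and 21.8 in LI, and 16.9 and 25.9 in SI. Pancreas was the lowest with a smallest difference of -0.61 from LI (largest edgeR adjusted p = 0.234), and the call was lost without LI replicate 2 (-0.54), pancreas replicate 2 (-0.36), or SI replicate 2 (-0.28). Its neighbour at +225.6 kb (chr1:184259761-184260299) gave CPM values of 15.3 and 12.9 in BM, 13 and 18 in lung, 5.24 and 8.09 in pancreas, 8.02 and 13.8 in LI, and 10.4 and 19.4 in SI. Pancreas had the lowest mean, by -0.75 from LI (largest edgeR adjusted p = 0.314), though 1 pancreas library reached the lower LI library, and the call was lost without either BM replicate (-0.75 each), LI replicate 2 (-0.28), pancreas replicate 1 (-0.45), or SI replicate 2 (-0.66).

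Dusp16, the other JNK and p38 phosphatase, had 1 called region of 5. Its promoter (chr6:134792258-134792827) gave CPM values of 24.4 and 24.3 in BM, 19.5 and 25.2 in lung, 16.8 and 14.2 in pancreas, 21 and 17.1 in LI, and 18.4 and 26.5 in SI. The tissues overlapped, and the test over the 5 tissues gave an adjusted p of 0.172. The called region lies at -13.7 kb from the start (chr6:134806103-134806603) and also inside 1700055D16Rik, with CPM values of 1.37 and 2.16 in BM, 0.549 and 0.662 in lung, 1.77 and 1.4 in pancreas, 2.09 and 3.56 in LI, and 4.43 and 2.58 in SI. Lung was lowest by -1.39 from pancreas (largest unadjusted p = 0.0182, largest edgeR adjusted p = 0.14), and the call was lost without BM replicate 2 (-1.16), lung replicate 1 (-1.27), or pancreas replicate 1 (-1.19) and with GC and width trends removed.

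Counts were also summed over the regions of each gene, for all 17062 genes with a region. On this scale 34.6% of genes differed among tissues (edgeR adjusted p under 0.05), and of the 7 members Dusp4 (adjusted p = 2.22e-05) and Dusp10 (adjusted p = 0.0249) did. Dusp4 sums were 50.0 ± 2.72 CPM in BM, 89.1 ± 3.39 in pancreas, 127 ± 17.4 in lung, 143 ± 37.5 in SI, and 152 ± 3.53 in LI (mean ± SD, n = 2). Of the neighbouring steps in that order, the one from BM to pancreas passed (0.84 on the log2 scale, edgeR adjusted p = 0.00281), and those from pancreas to lung (0.52), lung to SI (0.16), and SI to LI (0.09) did not. The Dusp4 call held in each alternative fit that was run on gene sums. Removal of GC and width trends was not run on them.

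Dusp10 sums were 88.3 ± 8.34 CPM in BM, 77.5 ± 8.84 in LI, 74.1 ± 6.90 in SI, 72.8 ± 3.20 in lung, and 55.8 ± 3.69 in pancreas (mean ± SD, n = 2). No neighbouring step passed, the top over the bottom differed by 0.66 (edgeR adjusted p = 0.00527), and the call was lost without BM replicate 2 (adjusted p = 0.0694), lung replicate 2 (0.0523), pancreas replicate 1 (0.161), or pancreas replicate 2 (0.0802). For the other 5 genes the adjusted p was 0.0539 for Dusp2, 0.0548 for Dusp6, 0.147 for Dusp1, 0.248 for Dusp16, and 0.463 for Dusp5. Dusp2 was called in 4 alternative fits, without SI replicate 1 (0.0256), without SI replicate 2 (0.0251), with library size alone (0.00464), and by DESeq2 (0.0233). Dusp6 was called in 3, without SI replicate 2 (0.0299), with the replicate number as a block (0.0392), and by DESeq2 (0.00535), and Dusp1 (0.0456) and Dusp16 (0.0218) with library size alone. Their highest and lowest tissues were BM and pancreas for Dusp2, lung and BM for Dusp6, BM and lung for Dusp1, SI and pancreas for Dusp16, and pancreas and BM for Dusp5. At Dusp6 and Dusp10 a sum adds regions at which different tissues were high.

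**Figure D4:**
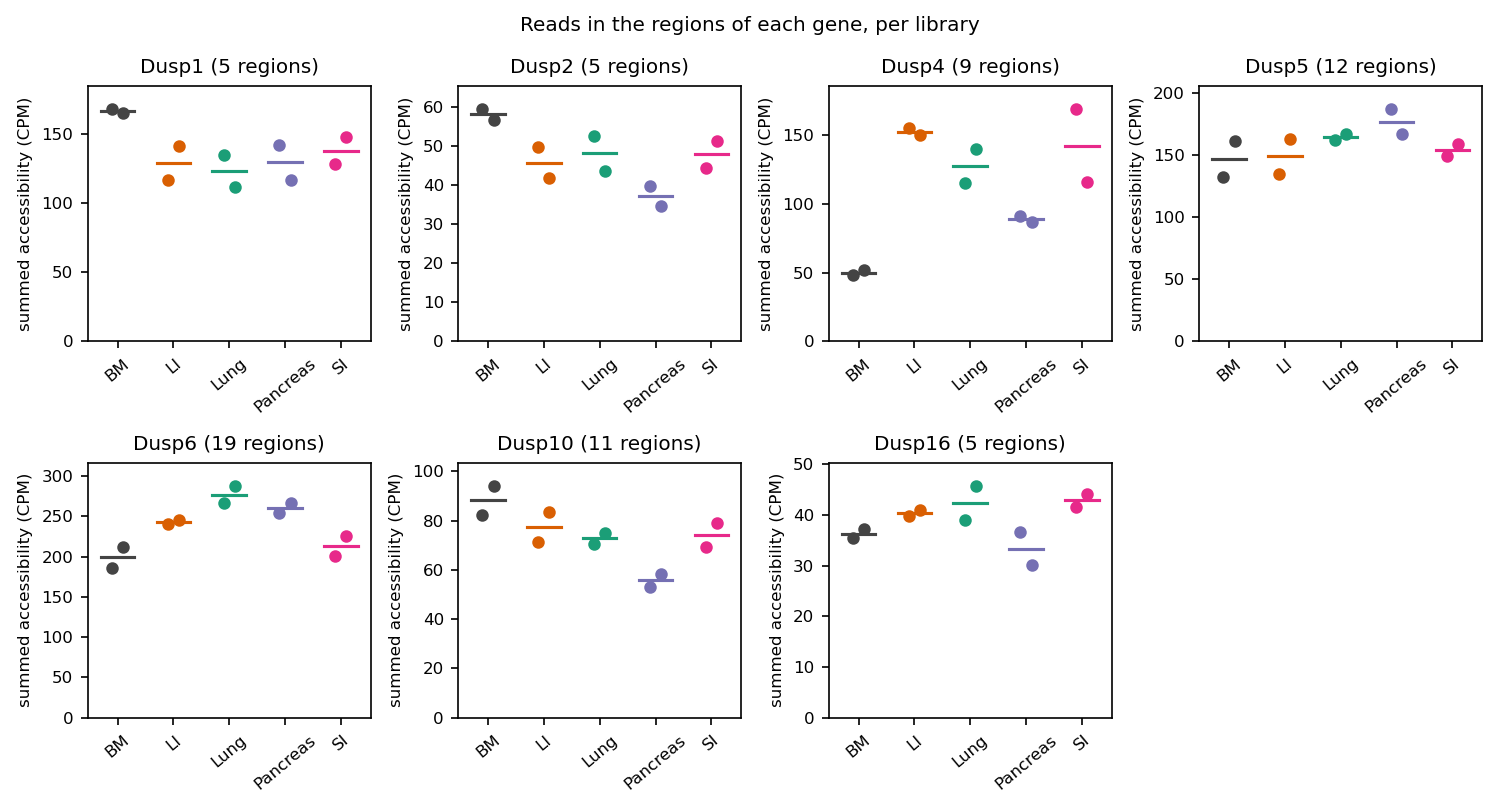
Counts summed over the regions of each gene (CPM), with points for the 2 libraries of a tissue and lines for their mean. Dusp4 runs from 50.0 CPM in BM to 152 CPM in LI, while the tissues of Dusp5 and Dusp16 lie close together.

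The genes whose summed accessibility was most like that of a member were taken by Pearson's r of log2 CPM over the 10 libraries, among at least 13302 genes with a mean of at least 10 CPM. All points share the same libraries, depth, and scaling, so r is a description. They were Cdkn2b (r = 0.973), Gm9530 (0.969), and Ss18 (0.964) for Dusp4, and Chst2 (0.992), Eif2d (0.975), and Rassf5 (0.971) for Dusp6. For Dusp10 they were Stom (0.912) and Golgb1 (0.912), and for Dusp16 Hes1 (0.946), Dock6 (0.934), and Dr1 (0.922). For Dusp1 they were Ift172 (0.931), G3bp1 (0.926), and Tsks (0.921), for Dusp2 Exosc1 (0.937), Bola3 (0.935), and Rab2a (0.924), and for Dusp5 1700122O11Rik (0.933), A930024E05Rik (0.913), and Gpr132 (0.907).

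Among further genes of the pathway, 112 of 259 regions of 45 MAPK kinases, kinase cascades, and regulators differed among tissues (43.2%, beside 44.2% of all regions). Of 59 tested regions of 21 other dual-specificity phosphatase genes, 20 did (33.9%). Without BM replicate 1 both counts fell, and the share of all regions called in that fit was not counted. The smallest p-values of the first list were at Map3k7, the kinase TAK1, and Rasa1, a Ras GTPase activator. The region at +178.8 kb of Map3k7 had means of 1.53 CPM in BM and 14.1 CPM in pancreas, and the one at +200.4 kb had 6.68 CPM in BM and 39.7 CPM in LI. The region at -109.5 kb of Rasa1 had 3.40 CPM in BM and 17.9 CPM in LI. In the second list they were at Ssh1, a cofilin phosphatase, with 1.60 CPM in pancreas and 14.9 CPM in SI, at Dusp11 with 1.54 CPM in BM and 12.4 CPM in pancreas, and at Dusp23 with 4.16 CPM in BM and 15.3 CPM in pancreas.

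Motif letters were counted in the central 500 bases of each region on both strands. CRE letters matched in 6 of the 66 member regions (9.09%, beside 3.61% of all regions), at the Dusp1 and Dusp4 promoters, at -2.2 kb of Dusp4, at -12.0 and -7.5 kb of Dusp5, and at +225.6 kb of Dusp10. RUNX letters matched in 33 (50.0%, beside 39.1%), GATA in 19 (28.8%, beside 24.7%), AP-1 in 16 (24.2%, beside 23.2%), ETS in 12 (18.2%, beside 16.3%), AHR (GCGTG) in 20 (30.3%, beside 40.3%), and the CArG box in 1 (1.52%, beside 2.08%). AHR letters are not capitalised in the printed sequences. None of these letter strings contains another, and a match is a description of the sequence.

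The assignment of regions to genes depends on the transcripts used. With predicted RefSeq transcripts added, 33 regions remained with the 7 genes: 11 of the 12 at Dusp5, 6 of 11 at Dusp10, 6 of 9 at Dusp4, all 5 at Dusp16, 2 of 19 at Dusp6, and 1 of 5 at each of Dusp1 and Dusp2. Among the 6 steadiest calls, those at Dusp10 +57.0 and +72.0 kb and at Dusp4 -51.7 kb stayed with their gene, and those at Dusp4 -66.9 kb, Dusp6 +110.7 kb, and Dusp1 -24.3 kb moved to predicted transcripts (Gm46069, Gm34983, and Gm34606).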

How the data were processed

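ATAC-seq libraries of ILC2s from 5 tissues were used. The authors mapped reads to mm10 with Bowtie2 2.2.9, called peaks with MACS2 2.1.1, retained peaks shared by the replicates of a tissue, joined those of the 5 tissues, and deposited the raw count of reads in each merged region and library. No removal of duplicates, shift for the transposase, or blacklist filter is stated in the sources used here, and counts without molecular identifiers are not independent molecules. The authors describe the libraries of a tissue as biological duplicates. Neither they nor the labels say that replicates came from separate sorts, so p-values measure the spread between these libraries.

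Regions with at least 1 count (49981) were fitted with edgeR 4.0.16 (TMM, glmQLFit, glmQLFTest, R 4.3.3), tissue being the only factor, and p-values were Benjamini-Hochberg adjusted over all regions. The same test was run on counts summed per gene. DESeq2 1.42.0 was an alternative. Recovery of known changes was checked on simulated data. Genes and start sites came from curated RefSeq transcripts of GRCm38.p6, the build of the files (chromosome names and lengths were compared). Whether region starts count from 0 is not stated; coordinates are as in the table, and sequences were read taking starts as 0-based.

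The members, gene lists, and motifs were chosen with earlier results of these data known. Named were all 7 genes, per gene the promoter region with the most counts and the other region with the smallest p, every region called in a tissue, and, per list, the 3 regions with the smallest p; regions named beyond these were chosen after their values were seen. For each gene the 3 genes with the highest Pearson r were named. 1 of those for Dusp10, an erythroid marker, and the sequence of a Dusp1 region are not reported here. Alternatives are given in the closing section, and the one with predicted transcripts was chosen after seeing the data. Same-numbered replicates did not deviate together in every pair of tissues.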

Additional observations from a re-analysis of the deposited data

How the results depend on the processing

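The log2 fold change of each single named region was taken between its highest and its lowest tissue, picked from these same data. A change of sign was therefore unlikely, and none was seen. Of these fold changes under other settings, 360 stayed on their side of the threshold, 21 fell below it, and 3 rose above it. These counts do not describe the calls against each other tissue, of which 6 of 21 held in each alternative fit. With DESeq2, 4 gene sums were called instead of 2. With library size alone, which moved the median difference between pancreas and SI over all regions from -0.058 to -0.296, 5 gene sums, 3 regions higher in BM, 3 higher in lung, and 1 lower in SI were called. With GC and width trends removed, 1 region was higher in lung, 0 lower in lung, and 0 intestinal; this was not run on gene sums. With adjusted p in each contrast, 3 regions were higher in BM, 1 in SI, and 0 in pancreas, 1 was lower in SI, 0 in lung, and 0 in pancreas, and 0 were intestinal. With the nearest TSS alone, 0 regions were lower in lung. With predicted transcripts (33 regions), 21 differed among tissues, 3 were higher in BM and 1 in SI, and 3 were lower in BM, 1 in pancreas, and 0 in SI. Fewer regions assigned is part of that setting's construction; for the other settings the cause was not tested.

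Leaving out each library in turn gave between 24 and 40 regions that differed among tissues, 1 to 4 gene sums, 70 to 133 MAPK regions, and 12 to 26 regions of other dual-specificity phosphatases (for these last lists the lowest counts came without BM replicate 1). Regions higher than each other tissue numbered 2 to 6 in BM, 0 to 1 in LI, 0 to 2 in lung, 0 to 1 in pancreas, and 1 to 3 in SI. Those lower numbered 4 to 9 in BM, 0 in LI, 0 to 1 in lung, 1 to 3 in pancreas, and 1 to 4 in SI, and 0 to 1 were intestinal. The lone library left in a tissue is then assumed to vary like the others. Shares over all regions were counted in the main fit alone, so these changes in number are not read as a trait of the genes.

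The replicate number as a block gave 37 regions that differed among tissues instead of 36 and 3 gene sums instead of 2. It gave 19 regions of other dual-specificity phosphatases and 108 MAPK regions. The correlation between tissues of replicate 1 minus replicate 2 over regions lay between -0.218 and 0.196, above 0.1 in 4 of 10 pairs. Values of both signs do not settle whether same-numbered replicates belong together. With 2 libraries per tissue and counts per region that vary with depth, differences at regions near 1 CPM are the least certain.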
